A study of Mus musculus with 7 samples.

Results

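Signalling through GABA-B receptors was examined in the subpallium of mouse embryos by following 6 genes on expression arrays. The set was Gabbr1 and Gabbr2, which encode the receptor, and Kctd8, Kctd12, Kctd12b and Kctd16, which encode its auxiliary subunits. Members were chosen by symbol, and every probe whose transcript accession belongs to 1 of these symbols in RefSeq was taken. Of the 6 genes 5 had a probe, 12 probes in all, out of 24844 probes with a symbol for 17178 genes. No probe could be assigned to Kctd16, so that gene was not analysed here. The set was assembled around Kctd8, which was among the genes called different between the groups in earlier work on these same arrays. The group differences of the members are therefore descriptions, and no test was run on the set itself. Calls given for members come from the fit over all genes or all probes and are not independent support.

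The arrays labelled Otx2 cKO came from 3 female CD-1 embryos at E12.5 (embryonic day) in which RxCre recombined a floxed Otx2 allele, and the other 4 came from female CD-1 embryos of the same stage whose genotype is given only as control. Each array measured total RNA of the microdissected ganglionic eminences and septum of 1 embryo. RxCre acts throughout the forebrain but spares a caudal dorsomedial domain with the choroid plexus and cortical hem, so cells of that domain keep Otx2. Litter 2 supplied cKO replicates 1 and 3 and control replicates 2 and 3, and each other embryo was the only one from its litter; slide 1 held cKO replicate 1 and control replicates 1 and 2, and slide 2 held the rest. The tissue markers were present: 9 of 10 subpallial markers were measured, among them Dlx6 and Sp8, and 0 were called. The Otx2 probe itself ran against the labels, with log2 signals of 1.73, 2.27 and 1.72 in cKO replicates 1 to 3 and 0.13, 0.48, 0.42 and 0.50 in control replicates 1 to 4. The extent of the floxed segment relative to this probe is not stated in the labels, so the groups are called by their labels and every direction rests on them.

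The GABA-B receptor is a G protein-coupled receptor made of a pair of unlike subunits. The protein of Gabbr1 binds GABA, and the protein of Gabbr2 couples to G proteins of the Gi/o class, which lower cyclic AMP, open Kir3 potassium channels and hold Cav2 calcium channels shut. KCTD proteins attach to the intracellular tail of the Gabbr2 protein as auxiliary subunits and set how fast and for how long the receptor signals: those of Kctd12 and Kctd12b speed desensitisation, whereas those of Kctd8 and Kctd16 do not. In the embryonic forebrain GABA acts before synapses form, and interneurons that migrate from the medial ganglionic eminence carry GABA-B receptors.

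The promoters of Kctd8 and Gabbr1 are shown because these were the only members whose cKO-labelled arrays all lay below the controls on the probe that represents the gene, for Gabbr1 on the 4 arrays where that probe was usable. Each is the 250 bases before the RefSeq start on the GRCm38.p6 build, written 5′ to 3′ on the gene's strand, with matches to the 3 searched motifs in capitals.
Kctd8 promoter, chr5:69341710-69341959, - strand: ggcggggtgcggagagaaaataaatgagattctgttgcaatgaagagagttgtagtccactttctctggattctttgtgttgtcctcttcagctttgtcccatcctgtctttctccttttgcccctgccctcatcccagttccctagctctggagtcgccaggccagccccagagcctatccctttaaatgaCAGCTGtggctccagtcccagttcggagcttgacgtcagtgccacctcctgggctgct
Gabbr1 promoter, chr17:37045716-37045965, + strand: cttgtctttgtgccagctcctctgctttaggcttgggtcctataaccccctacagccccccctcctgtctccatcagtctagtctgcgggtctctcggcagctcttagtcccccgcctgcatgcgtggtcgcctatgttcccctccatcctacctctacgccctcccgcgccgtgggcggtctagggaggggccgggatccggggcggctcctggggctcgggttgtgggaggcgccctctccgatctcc
The motifs were TAATCC, the core bound by Otx-type homeodomains, TAATTA, a core of LIM and Dlx-type homeodomains, and CAGCTG, an E-box bound by basic helix-loop-helix factors, each searched on both strands. Kctd8 held 1 CAGCTG, which begins at position -58 relative to the start of the gene, and neither of the other motifs. None of the 3 occurred in these windows of Gabbr1, Kctd12 or Gabbr2. Among the promoters of all 32851 RefSeq starts cut to the same length, 13.0% held CAGCTG, 6.252% TAATCC and 4.84% TAATTA. The Kctd8 window held 5 CpG pairs and the Gabbr1 window 16, against 36 for Kctd12, 37 for Gabbr2 and a median of 6 over all promoters.

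Values below are log2 signals relative to the 75th percentile of the array, so 0 is the signal at that percentile and a difference of 1 is a 2-fold difference. A gene's value is that of its brightest probe. Differences are cKO-labelled minus control with the moderated standard error (SE) of limma fitted over all genes, or over all probes for a second probe. Levels of different probes are not compared, because each probe has its own brightness per molecule. Of the 12 probes 10 were well above background on at least 3 arrays, 9 of them on all 7.

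Kctd8, whose product gives sustained rather than desensitising GABA-B responses, was lower in all 3 arrays labelled Otx2 cKO than in any control. The only probe for it gave log2 signals of -2.93, -3.13 and -3.37 in cKO replicates 1 to 3, against -1.79, -1.99, -1.89 and -2.07 in control replicates 1 to 4. The highest cKO-labelled array was below the lowest control, and the groups were separated by more than the range within either (0.43 for cKO-labelled arrays and 0.28 for controls). The means were -3.14 ± 0.22 for cKO-labelled arrays and -1.94 ± 0.12 for controls (SD, n = 3 and 4), a difference of -1.21 ± 0.12 (SE), or 2.31-fold lower. By size this was the difference ranked 71 from the most negative of 13343 genes tested. Kctd8 was the 1 member of the 5 measured that limma called after Benjamini-Hochberg adjustment over all genes at a threshold of 0.05, where 0.21% of all genes were called in either direction, 0.12% lower and 0.0899% higher. In the fit over single probes its probe was the 1 called of 10, where 0.0877% of all probes were called in either direction and 0.0526% lower. The Benjamini-Hochberg adjusted p of limma for Kctd8 in that fit was 0.0499, just under the threshold. Since a call on this contrast brought the gene into the set, neither call supports anything further. At that threshold the last gene called was Adamts5, with a difference of -1.29, and the first not called was Lhx6, with -1.18.

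The size of the Kctd8 difference changed little with litter and slide, whereas its call was lost in many of the smaller or blocked fits. It was -1.21 within litter 2, -1.04 within slide 1, where 1 cKO-labelled array stands against 2 controls, and -1.27 within slide 2. Litter 2 supplied 2 of the 3 cKO-labelled arrays and 2 of the 4 controls, and Kctd8 was not called within it, with litter as a block (-1.21) or within either slide; with slide as a block (-1.18) it was called. With single arrays left out it ranged from -1.31 to -1.10, but Kctd8 was then called only without cKO replicate 1 (-1.31); it was not called without cKO replicate 2 (-1.21), cKO replicate 3 (-1.10) or control replicate 1, 2, 3 or 4 (-1.16, -1.23, -1.19 and -1.25).

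**Figure D1:**
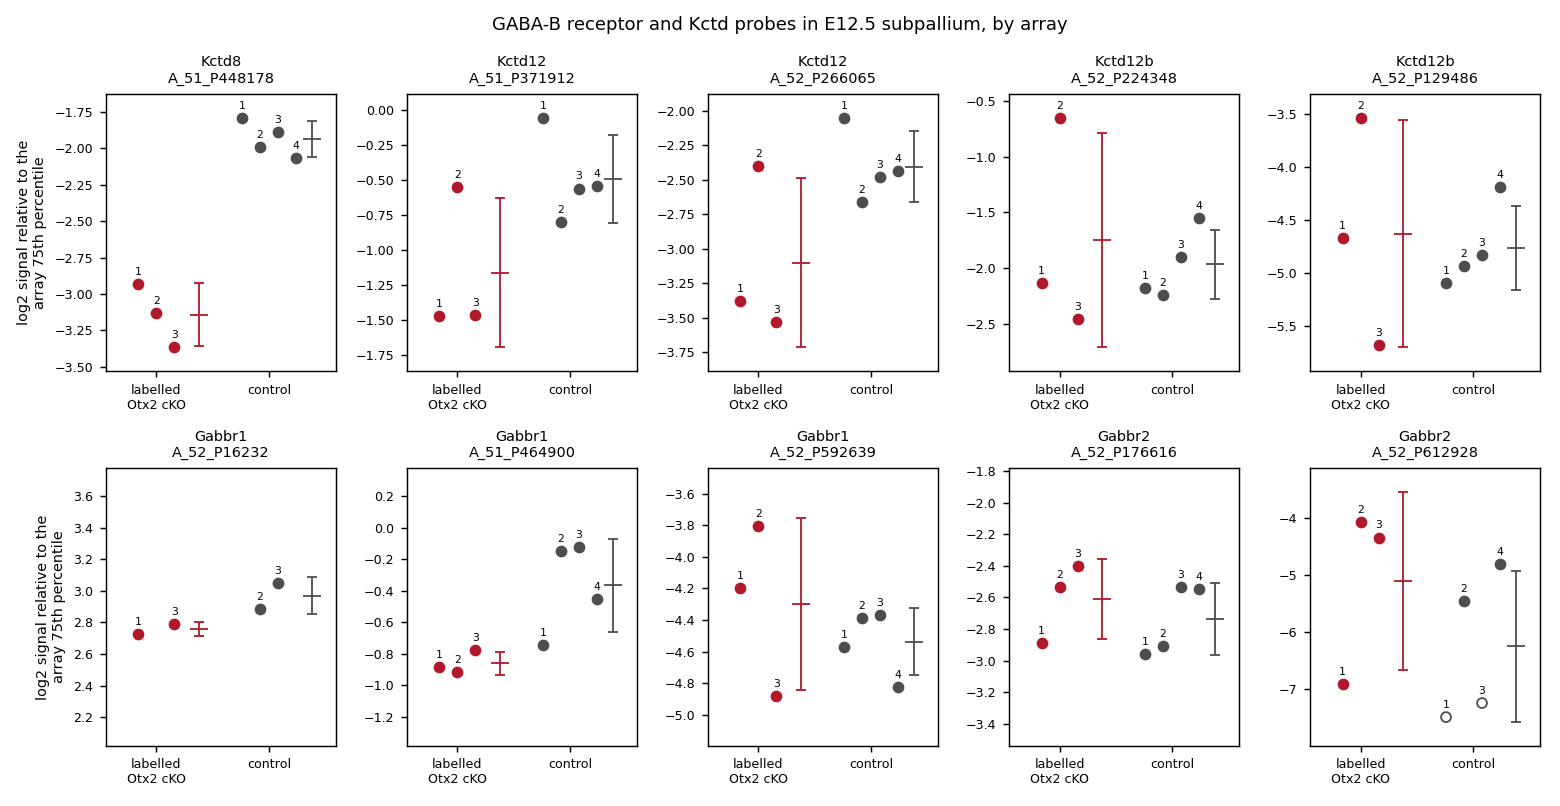
Log2 signal relative to the 75th percentile of the array (vertical axis) for the 10 probes past the background filter, with 1 point per array numbered by replicate, arrays labelled Otx2 cKO in red and left of the controls in grey, and the mean ± SD beside them; open points were not well above background. The cKO-labelled arrays lie at -3.37 to -2.93 for Kctd8 and the controls at -2.07 to -1.79, whereas cKO replicate 2 stands above the other 2 cKO-labelled arrays in Kctd12 and Kctd12b.

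Most markers of the medial ganglionic eminence were lower along with Kctd8 in the cKO-labelled arrays. Of 13 such markers 12 were tested, 11 with a negative difference. Of these 12, 3 were called lower and 0 higher, where 0.12% and 0.0899% of all genes were, and 8 had every cKO-labelled array below every control, where 7.25% of all genes did. The list was chosen with earlier results of these arrays known, so the counts describe it and nothing is read from them beside these shares. The 1 positive difference, 0.13 ± 0.19 (SE, n = 3 and 4) with overlapping groups, was that of Nkx2-1, the homeobox gene that specifies this eminence, named here after its value was seen. The 3 called were Lhx8, Gbx1 and Nxph1, a LIM homeobox gene of cholinergic neurons, a homeobox gene and a neurexophilin gene, with differences of -2.03 ± 0.17, -1.47 ± 0.13 and -0.86 ± 0.09 (SE, n = 3 and 4). The signals of the 11 markers with a value on every array summed to 17.4 to 20.6 times the 75th percentile in cKO-labelled arrays and 44.5 to 50.5 times in controls. Ackr3 was the marker too dim to test. Their part in the Kctd8 difference was not tested. In bulk tissue fewer cells of a type and less RNA per cell cannot be told apart. Within the groups the order of the arrays was not shared throughout: cKO replicate 3 had the lowest Kctd8 value and the lowest marker sum of the cKO-labelled arrays, whereas among controls replicate 1 had the highest Kctd8 value and replicate 3 the highest marker sum. Neuron markers summed to 174 to 196 in cKO-labelled arrays and 202 to 226 in controls over 12 genes, and 0 of 13 tested were called. Of these 13, 10 had a negative and 3 a positive difference. Every cKO-labelled array lay below every control for 5 of them and above for 0, where 7.25% and 5.46% of all genes did. Subpallial markers summed to 17.2 to 21.0 in cKO-labelled arrays and 21.6 to 25.9 in controls over 7 genes. Pallial markers, 8 tested of 9 with 0 called, also had sums that did not overlap, 23.9 to 26.4 in cKO-labelled arrays and 31.2 to 39.7 in controls over 7 genes. Among them the neuronal transcription factor genes Neurod2 and Neurod6 differed by -0.80 ± 0.18 and -0.76 ± 0.16, with every cKO-labelled array below every control, whereas Emx2, a homeobox gene of cortical progenitors, differed by 0.56 ± 0.12 with every cKO-labelled array above (SE, n = 3 and 4). Progenitor markers, 9 tested of 9 with 0 called, summed to 243 to 296 in cKO-labelled arrays and 208 to 255 in controls, which overlap; Hes1, a Notch target gene, differed by 0.58 ± 0.17 and Fabp7, a gene of radial glia, by 0.20 ± 0.10 (SE), both with every cKO-labelled array above every control, and the groups overlapped for Vim, an intermediate filament gene, at 0.29 ± 0.17 (SE). Every cKO-labelled array lay below every control for 3 of 9 subpallial, 2 of 8 pallial and 0 of 9 progenitor markers tested. Every one lay above for 1, 2 and 2 of these markers, in the same order. Of all genes 7.25% lay below in this way and 5.46% above. The part of these cell types in the Kctd8 difference was not tested. Choroid plexus (5 tested of 7) and erythroid (6 of 6) markers held 0 called genes, and 0 of their tested genes separated the groups. Most of their differences were positive, 4 positive and 1 negative for choroid plexus markers (median 0.40) and 6 and 0 for erythroid markers (median 0.13). The sums of both lists overlapped between the groups.

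Among the genes whose values followed Kctd8 most closely over the 7 arrays were Adamts5, a protease gene of the extracellular matrix, with a Pearson correlation of 0.991, Dlgap1, which encodes a postsynaptic scaffold protein, with 0.989, the lipid transporter gene Abca2 with 0.989 and Cables2 with 0.987. These are descriptions over 7 arrays that fall into separate groups for Kctd8, so a correlation of this kind mostly repeats the gap between the groups. These 4 genes differed by -1.29, -0.68, -0.30 and -0.33 on the log2 scale, in the same order, and of them only Adamts5 was called.

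Kctd12, whose product speeds desensitisation of the receptor, was lower in 2 of the 3 cKO-labelled arrays. Its brighter probe gave -1.47, -0.55 and -1.46 in cKO replicates 1 to 3 and -0.06, -0.80, -0.56 and -0.55 in control replicates 1 to 4. The groups overlapped, because cKO replicate 2 lay within the control range while cKO replicates 1 and 3 lay below all 4 controls. The means were -1.16 ± 0.53 in cKO-labelled arrays and -0.49 ± 0.31 in controls (SD, n = 3 and 4), and the difference of -0.67 ± 0.28 (SE) was not called. The second probe of Kctd12 gave -3.38, -2.40 and -3.53 in cKO replicates 1 to 3 and -2.05, -2.66, -2.48 and -2.44 in control replicates 1 to 4, a difference of -0.69 ± 0.29 (SE). Both probes thus placed the same 2 arrays below the controls and cKO replicate 2 among them. On the brighter probe the difference was -0.79 within litter 2, -1.04 within slide 1 and -0.45 within slide 2, and it ranged from -0.98 without cKO replicate 2 to -0.52 without cKO replicate 1 or 3.

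Kctd12b, a close relative of Kctd12 whose product also speeds desensitisation, varied more between embryos than between groups. Its brightest probe gave -2.13, -0.65 and -2.45 in cKO replicates 1 to 3 and -2.18, -2.23, -1.90 and -1.55 in control replicates 1 to 4. The highest and the lowest of the 7 arrays were both cKO-labelled. The means were -1.75 ± 0.96 in cKO-labelled arrays and -1.97 ± 0.31 in controls (SD, n = 3 and 4), a difference of 0.22 ± 0.43 (SE) that was not called and that became -0.33 without cKO replicate 2. A second, dimmer probe gave -4.67, -3.54 and -5.68 in cKO-labelled arrays and -5.10, -4.93, -4.83 and -4.19 in controls, again with cKO replicate 2 highest and cKO replicate 3 lowest. The remaining Kctd12b probe never came out well above background.

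Markers of endothelium and of mesenchyme and pericytes varied along with Kctd12b. Over the 7 arrays its Pearson correlation with the median marker level was 0.912 for endothelial markers and 0.830 for mesenchyme and pericyte markers, a description in which cKO replicate 2 is highest in all 3 measures and the values share arrays and scaling. All 11 mesenchyme and pericyte markers were tested, and 0 were called. Signals of the 10 with a value on every array summed to 3.36, 47.1 and 6.87 times the 75th percentile in cKO replicates 1 to 3 and to 20.0, 3.12, 17.1 and 23.9 times in control replicates 1 to 4. The same 2 arrays, cKO replicate 2 and control replicate 4, had the highest sums and the highest Kctd12b values in that order. The order was not shared below them. Control replicate 1 had the next highest sum, but its Kctd12b value of -2.18 was below those of control replicate 3 (-1.90) and cKO replicate 1 (-2.13). Endothelial markers, 9 tested of 9 with 0 called, summed over 8 genes to 7.88, 15.8 and 6.75 in cKO replicates 1 to 3 and 10.9, 7.28, 11.3 and 11.95 in control replicates 1 to 4. Microglia and macrophage markers, 8 tested of 8 with 0 called, summed to 2.40 to 4.78 in cKO-labelled arrays and 2.40 to 3.62 in controls. There too cKO replicate 2 was the highest array, as it was for erythroid markers with a sum of 388. A high value in that array is thus not particular to endothelial or mesenchyme markers. The part of all these markers in the values of Kctd12 and Kctd12b was not tested.

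**Figure D2:**
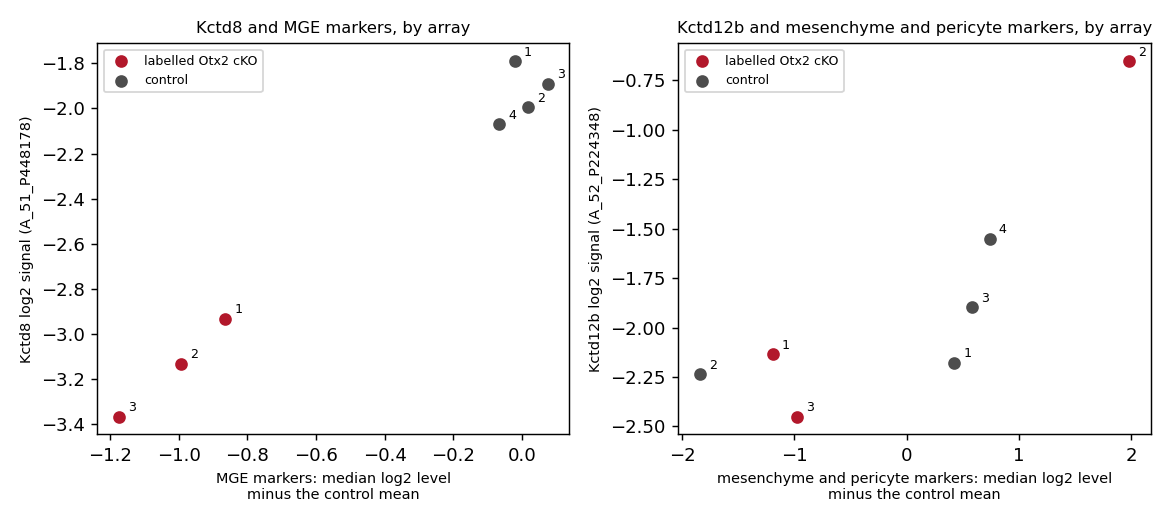
Log2 signal of Kctd8 against the median log2 level of the medial ganglionic eminence markers (left) and of Kctd12b against that of the mesenchyme and pericyte markers (right), both marker medians relative to the control mean, with 1 point per array numbered by replicate. The 3 cKO-labelled arrays sit apart at marker medians of -1.17 to -0.86 on the left, and cKO replicate 2 sits apart at 1.98 on the right.

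Gabbr1, which encodes the GABA-binding subunit, had 3 probes that disagreed. The scanner software marked the spot of its brightest probe as an outlier on cKO replicate 2 and control replicates 1 and 4, so the fit used 2 arrays of each group, all of litter 2. That probe gave 2.73 and 2.79 in cKO replicates 1 and 3, against 2.89 and 3.05 in control replicates 2 and 3, a difference of -0.21 ± 0.13 (SE, n = 2 and 2) that was not called. With the marked spots kept, the values were 2.73, 2.82 and 2.79 in cKO replicates 1 to 3 and 2.79, 2.89, 3.05 and 2.93 in control replicates 1 to 4, which overlap and differ by -0.14. The next brightest Gabbr1 probe was measured on every array, at -0.88, -0.92 and -0.78 in cKO replicates 1 to 3 and -0.74, -0.15, -0.12 and -0.46 in control replicates 1 to 4. Every cKO-labelled array was below every control on it, although cKO replicate 3 and control replicate 1 were close. The difference on this probe was -0.49 ± 0.17 (SE, n = 3 and 4), which was not called over all probes, and it was -0.69 within litter 2, -0.44 within slide 1 and -0.56 within slide 2. The dimmest of the Gabbr1 probes gave -4.20, -3.80 and -4.88 in cKO-labelled arrays and -4.57, -4.38, -4.37 and -4.82 in controls, with overlapping groups and a difference of 0.24 ± 0.26 (SE).

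Gabbr2, which encodes the subunit that carries the KCTD proteins, did not separate the groups. Its brightest probe gave -2.89, -2.54 and -2.40 in cKO replicates 1 to 3 and -2.96, -2.91, -2.53 and -2.54 in control replicates 1 to 4. The groups overlapped, at -2.61 ± 0.25 in cKO-labelled arrays and -2.73 ± 0.23 in controls (SD, n = 3 and 4), with a difference of 0.13 ± 0.17 (SE) that was not called. In both groups the arrays of slide 1 were the lowest, cKO replicate 1 at -2.89 and control replicates 1 and 2 at -2.96 and -2.91; the difference was 0.04 within slide 1 and 0.07 within slide 2. A second Gabbr2 probe was well above background on 3 of 3 cKO-labelled arrays but only 2 of 4 controls, ranged from -6.90 to -4.07 in cKO-labelled arrays and from the floor of -7.49 to -4.81 in controls, and differed by 1.14 ± 0.93 (SE). The remaining one came out well above background on 0 arrays.

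Counted over the set, 2 of the 5 genes measured had every cKO-labelled value below every control value and 0 had every value above, where 7.25% of all genes lay below in this way and 5.46% above. Over single probes it was 3 of 10 below and 0 above, where 5.58% of all probes lay below and 5.65% above. The brightest Gabbr1 probe enters both counts on 2 arrays of each group, and its groups overlapped with the marked spots kept. Separation is easier with fewer arrays, and 12669 of the 13343 genes had a value on all 7. For that probe the shares are therefore not a like comparison. These shares are given beside the counts and nothing is read from them, since the set was built on this contrast.

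**Figure D3:**
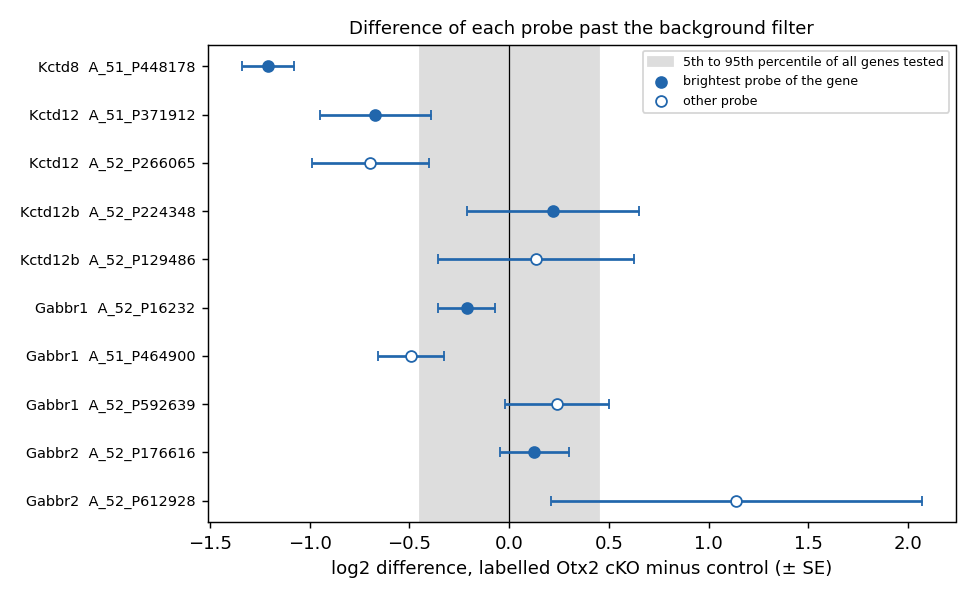
Log2 difference, labelled Otx2 cKO minus control, with its SE (horizontal axis) for each probe past the background filter, fitted over all probes, where filled points are the brightest probe of a gene and the grey band holds the 5th to 95th percentile of all genes tested. Kctd8 at -1.21 lies farthest to the left, both Kctd12 probes lie near -0.7, and the Gabbr1 probes lie on either side of 0.

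Genes that act with the receptor were taken as lists. Of the 81 genes tested in the 9 pathway lists 0 were called, where 0.21% of all genes were, so this count does not set them apart from other genes. Shares of all genes with every cKO-labelled array below every control (7.25%) or above (5.46%) apply to each list that follows, and the median difference over all 13343 genes was 0.02. Below in this way lay 2 of 9 binding proteins, 2 of 15 other KCTD genes and 2 of 5 Gi/o alpha subunit genes. So did 2 of 13 G beta and gamma, 1 of 9 adenylyl cyclase, 1 of 15 RGS and 2 of 8 GABA synthesis and transport genes. In the Kir3 and Cav2 lists it was 0 of 2 and 0 of 5. Above lay 1 of the 9 binding proteins and 0 genes of the other lists. The members of the receptor set themselves had a median of -0.21.

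Receptor-binding proteins and other relatives came first. Of 9 GABA-B binding proteins all 9 were tested, with 3 positive and 6 negative differences and a median of -0.18. The 3 with the smallest p were Jakmip1, a microtubule-associated partner of the receptor, at -0.37 ± 0.14, Ajap1, which binds the extracellular part of the Gabbr1 protein, at -0.30 ± 0.11, and App, another such ligand, at -0.24 ± 0.09 (SE, n = 3 and 4). Of the 20 other KCTD family genes 15 were tested, 8 positive and 7 negative, with a median of 0.02. The smallest p values there belonged to Kctd13, an adaptor for the CUL3 ubiquitin ligase, at -0.46 ± 0.16, Shkbp1 at -0.19 ± 0.08 and Kctd4 at -0.48 ± 0.23. No tested KCTD gene outside the auxiliary clade was farther from 0 than Kctd4, against -1.21 for Kctd8 and -0.67 for Kctd12. The other tested gene of the clade, Kctd12b, differed by 0.22 ± 0.43 (SE) and was nearer to 0 than Kctd4.

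Of 5 Gi/o alpha subunit genes 4 had a negative difference, with a median of -0.21, and 0 were called. Gnao1, the main Go subunit gene of neurons, differed by -0.47 ± 0.14, Gnai1 by -0.31 ± 0.09 and Gnai2 by -0.21 ± 0.12 (SE, n = 3 and 4). Gnao1 and Gnai1, 2 of the 5, had every cKO-labelled array below every control, where 7.25% of all genes did. Of 14 G beta and gamma subunit genes 13 were tested, with a median of -0.05; Gng7 differed by -0.55 ± 0.12, Gng10 by -0.28 ± 0.10 and Gng5 by 0.17 ± 0.11. Gng7 encodes a gamma subunit best known in the striatum.

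Effectors and regulators of the pathway showed no shared direction. Among 9 adenylyl cyclase genes 2 were positive and 7 negative, with a median of -0.15; Adcy1 differed by -0.53 ± 0.17, Adcy8 by -0.71 ± 0.36 and Adcy2 by -0.36 ± 0.28 (SE, n = 3 and 4). Of the 4 Kir3 channel genes only Kcnj3 and Kcnj9 were bright enough to test, with differences of -0.42 ± 0.29 and 0.08 ± 0.12. Of 7 genes for Cav2 channels and auxiliary calcium channel subunits 5 were tested, with a median of -0.16. Cacna1a was the only tested gene that encodes a Cav2 channel itself, and is named for that reason. It differed by -0.19 ± 0.50. Among the auxiliary subunit genes Cacnb3 differed by -0.51 ± 0.22, Cacna2d2 by 0.31 ± 0.19 and Cacnb4 by -0.16 ± 0.11. All 15 RGS genes, whose products shorten G protein signals, were tested, with 8 positive, 7 negative and a median of 0.02. Rgs6 differed by -1.03 ± 0.32, the most negative value of the pathway lists. It was the 1 RGS gene of the 15 with every cKO-labelled array below every control, where 7.25% of all genes did. It was dim, with means of -6.83 in cKO-labelled arrays and -5.81 in controls, near the floor of -7.49. Adcy8, Kcnj3 and Cacna1a were dim too, with means of -5.95, -6.09 and -6.16 in cKO-labelled arrays and -5.23, -5.68 and -5.98 in controls. Rgs17 differed by -0.39 ± 0.13 and Rgs16 by -0.30 ± 0.13.

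The supply of the ligand was followed through the genes of GABA synthesis and transport, of which 8 of 9 were tested. Gad1 and Gad2, which encode the enzymes that make GABA, differed by -0.67 ± 0.13 and -0.34 ± 0.08, and the vesicular transporter gene Slc32a1 by -0.32 ± 0.13 (SE, n = 3 and 4). Gad1 and Gad2, 2 of the 8, had every cKO-labelled array below every control, where 7.25% of all genes did, and 0 of the 8 were called, where 0.21% of all genes were. The median was -0.25.

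**Figure D4:**
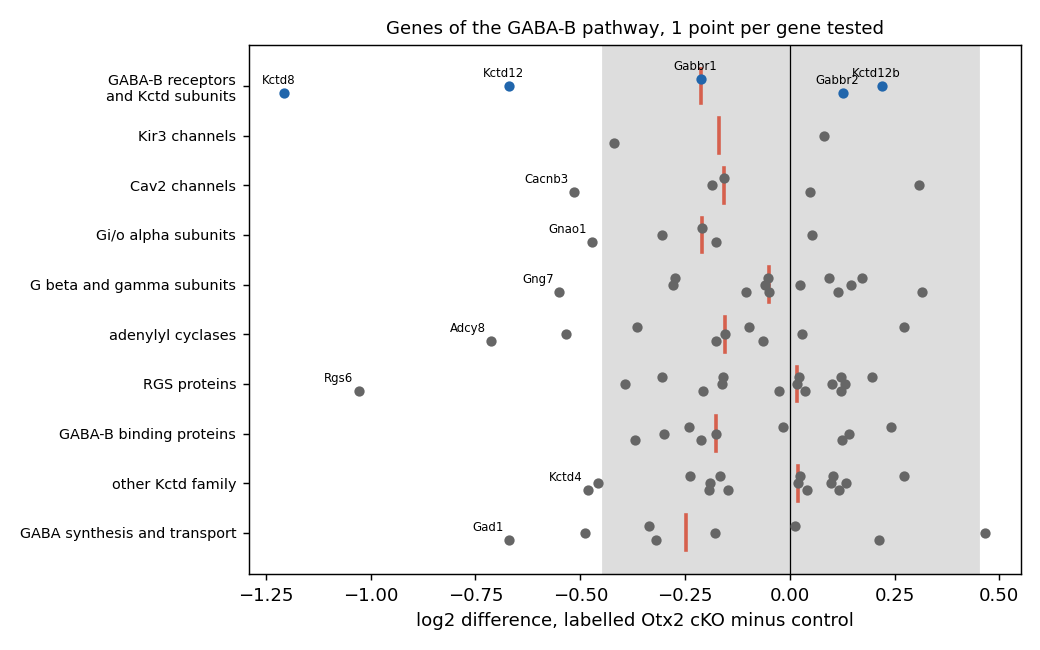
Log2 difference, labelled Otx2 cKO minus control (horizontal axis), with 1 point per gene tested and a row per list, the receptor set at the top in blue, red ticks at list medians and the 5th to 95th percentile of all genes in grey; the most negative gene of a list is named where it is below the band. Kctd8 at -1.21 and Rgs6 at -1.03, a dim gene near the floor, are the farthest points, and list medians lie between -0.25 and 0.02.

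**Figure D5:**
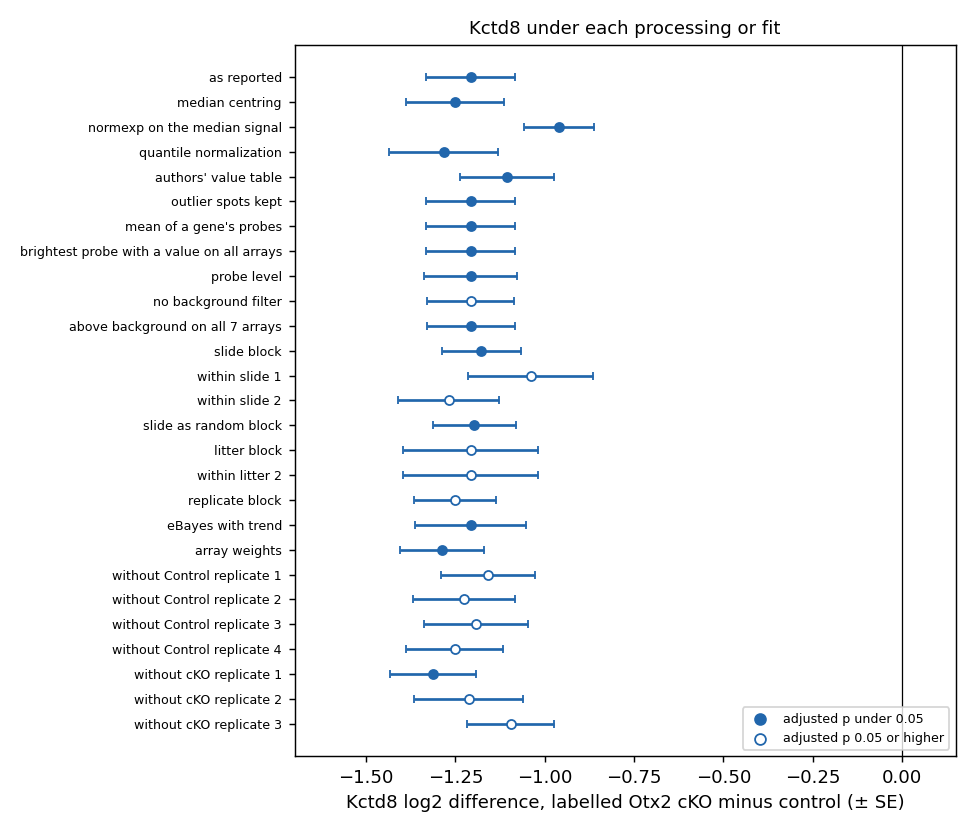
Kctd8 log2 difference, labelled Otx2 cKO minus control, with its SE (horizontal axis) as reported and under 26 other processings or fits, filled where the adjusted p was under 0.05. All values lie between -1.31 and -0.96, and 14 of the 26 are filled.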

How the data were processed

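Intensity values were deposited by the authors as 1 Agilent Feature Extraction file per array (version 10.7.3.1 per the file headers, 10.5 per the submitters' processing notes). Per the labels' protocols, linear amplification put Cy3 into the cRNA, which went onto whole mouse genome arrays; per the file headers the software removed background and spatial trend from each processed signal. The authors' deposited table of log2 values, of unstated scale, followed the median spot signal (rank correlation at least 0.9996), shared a maximum of 18.8, and had column medians of 7.62, 7.62 and 7.64 for cKO replicates 1 to 3 and 7.61, 7.63, 7.61 and 7.62 for control replicates 1 to 4; it served as an alternative. Its centring and scale stay unknown, its direction follows the signal.

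Each array held 45018 spots, 43379 of them not controls, and 68.4% to 72.2% were well above background; 0 were saturated. Control and outlier spots (1.24% to 2.51%) were left out. Processed signals were scaled to the 75th percentile of each array, set to a common floor (log2 value -7.49) and put on the log2 scale, and spots of 1 probe were averaged. Probes were named by unversioned RefSeq accession through the GRCm38.p6 gene table: of 41174 probes 24844 had 1 symbol, 0 several and 16330 none. The brightest probe stood for its gene, which was tested where 3 or more arrays had the probe well above background and each group held 2 values without an outlier mark (13343 genes; 28517 probes in the fit over single probes).

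The 2 groups were compared in R 4.3.3 by the moderated test of limma 3.58.1 (functions lmFit and eBayes, no covariate), with Benjamini-Hochberg adjustment across the genes tested at 0.05; the script was tested on simulated data. No sequencing depth exists; the number of arrays limits precision. Embryos are the replicates. Tables and promoter windows were handled in Python 3.11.15. The members and gene lists were chosen with earlier results of these data known. The genes named were the members, Otx2, in each list the genes called and, up to 3, those with the smallest p (choroid plexus, erythroid, endothelial, mesenchyme, microglia and neuron markers are given as counts), and the genes that correlate best with each member; some genes that this rule names are not reported here. Replicate numbers recur in both groups but do not pair embryos: deviations from the group means of same-numbered arrays correlated at 0.11, -0.53 and 0.02 for numbers 1 to 3. The alternatives were other scalings, background corrections, probe choices and filters, slide, litter and replicate blocks, and leaving out each array. The planned background correction on the mean spot signal was run on the median signal, and the mean over a gene's probes left out probes with a missing value where the gene had others.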

Additional observations from a re-analysis of the deposited data

How the results depend on the processing

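The Kctd8 difference stayed negative in all 26 alternatives, from -1.31 to -0.96, and was called in 14 of them. These counts include fits that could not move the difference, because Kctd8 has 1 probe and no marked spot. Keeping outlier spots, other probe choices, other background filters and the variance trend all reuse the same values and returned -1.21. The call was lost, with 1 array left out, in 6 of 7 cases (values -1.31 to -1.10 over all 7). It was also lost without the background filter (-1.21), within slide 1 (-1.04), within slide 2 (-1.27), with litter as a block (-1.21) and within litter 2 (-1.21), and with the replicate block (-1.25); these fits test more genes or leave fewer degrees of freedom. Kctd12 stayed negative (-1.04 to -0.45), Gabbr1 negative (-0.49 to -0.13 in 20 alternatives) and Gabbr2 positive (0.02 to 0.63), none called. Many of the Gabbr1 alternatives refit the same 2 arrays of each group and repeat -0.21. Kctd12b changed sign with litter as a block (-0.23), within litter 2 (-0.23), with array weights (-0.20) and without cKO replicate 2 (-0.33, its range over arrays left out -0.33 to 0.57); the first 2 and the last leave cKO replicate 2 without weight, and the cause under array weights was not tested.

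Over all genes 12 were called higher and 16 lower. Leaving out 1 array gave 0 to 8 higher and 0 to 18 lower: limma called 0 without control replicate 2, 3 or 4 or cKO replicate 3 (with unadjusted p under 0.05, 556, 484, 500 and 422 genes were higher and 734, 602, 964 and 455 lower), 1 higher and 2 lower without cKO replicate 2, and 4 and 8 without control replicate 1. It called 0 in either direction within slide 1 (227 and 185 unadjusted), within slide 2 (552 and 660), with litter as a block (234 and 590), within litter 2 (230 and 580) and with the replicate block (621 and 868). Fewer were called higher under quantile normalization (7, against 17 lower), without the background filter (4, and 7 lower) and with slide as a block (6). More were called lower with normexp on the median signal (30, chosen after seeing the data), in the authors' table (26), with a variance trend (36) and with array weights (42, and 19 higher); the cause was not tested.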

Other observations

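The genes whose values followed the other members most closely over the 7 arrays, by Pearson correlation and as a description only, were these. For Kctd12 they were Tm4sf5 (0.987), Arhgap1 (0.982) and Serpine2 (0.975). Kctd12b was followed by Tmem63a (0.986), Lsp1 (0.985) and the basement membrane collagen gene Col18a1 (0.982). On the Gabbr1 probe measured on every array the closest were Rgs8, a regulator of G protein signalling, Eif5 and Ccl17 (0.975, 0.975 and 0.973). For Gabbr2 they were F9, Slc17a2 and Olfr113 (0.993, 0.991 and 0.990). None of these genes was called between the groups.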
